A study of Mus musculus with 6 samples.

Results

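The comparison described here sets mouse embryonic stem cells with the Activin/Nodal pathway driven by added ligand against the same cells with the pathway blocked at its receptors. The 2 arrays titled as activin-treated were compared with the 2 titled as treated with the inhibitor, so 4 of the 6 arrays of the study entered the test. The 2 arrays of untreated cells did not enter this test and gave a level to place between the treated groups. They did enter the alternative fits with all 6 arrays, on which the term stable, defined below, rests in part. All groups were E14Tg2a cells in N2B27, a serum-free medium that here held 20 ng/ml BMP4 and 1000 U/ml LIF, so BMP and LIF signals were supplied to every group. Activin was given at 10 ng/ml for 2 h. The inhibitor SB431542, spelled SB432542 in the title of 1 array, was given at 5 µM for 24 h. Agent and duration therefore differ together and cannot be told apart, and no vehicle is stated for the untreated cells. Nothing in the labels tells whether a group's 2 arrays were separate cultures. A p-value here sets a difference against the spread of arrays within groups, estimated largely from probe sets of like level. That spread may be only technical.

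Activin and Nodal are ligands of the TGF-beta family. They bind type II and type I receptor kinases, which phosphorylate Smad2 and Smad3; these join Smad4, enter the nucleus and act with partners such as Foxh1. SB431542 inhibits the type I receptors Acvr1b, Tgfbr1 and Acvr1c and leaves the BMP type I receptors, which signal through Smad1 and Smad5, largely untouched. Embryonic stem cells make Nodal themselves, so untreated cells already signal through this pathway, and Nodal induces its own antagonists Lefty1 and Lefty2. BMP, in the same cells, induces the Id genes.

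Values are log2 of the deposited probe set intensities, a level on the array's own scale. Each difference is the mean of the 2 activin arrays minus the mean of the 2 SB431542 arrays. It was called higher or lower after activin when limma's adjusted p was under 0.05. The prior variance followed the level and was estimated robustly. Median intensities per array ran from 37 to 49. Probe sets for Bacillus transcripts that were not spiked in, 27 of them, lay between 3.00 and 5.09, which marks the background. All 8 embryonic stem cell markers (Pou5f1, Sox2, Nanog, Zfp42, Klf4, Esrrb, Dppa5a and Tdgf1) lay above 7 on all 6 arrays, from 10.59 to 14.14. None of the 7 fibroblast markers and none of the 4 extraembryonic endoderm markers had a mean above 7. Of 5 trophoblast markers 3 had a mean above 7 in at least 1 group, as did 1 of 2 neuroectoderm markers. Each value is that of bulk RNA, in which fewer cells of a type and less RNA per cell cannot be told apart.

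Of 45037 probe sets, 1485 (3.3%) passed the test, 471 (1.05%) higher after activin and 1014 (2.25%) lower. A mean above log2 7 in either treated group was met by 15115 probe sets, and 1322 of these (8.75%) passed. Of these bright probe sets 366 (2.42%), for 282 named genes, were higher after activin, and 956 (6.32%), for 733 named genes, were lower. The larger changes were balanced: 61 bright probe sets (43 genes) were higher by over 1 log2 unit and 70 (58 genes) were lower by as much. Over 2 log2 units there were 12 higher (8 genes) and 5 lower (3 genes). Differences under 0.5 were more often lower, with 481 lower and 150 higher. Lower calls made up 68.3% of all calls and higher calls 31.7%, which became 55.1% and 44.9% when quantile normalization was repeated over the 4 arrays.

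The count of calls rests on how the variance was estimated from 2 arrays a group. With limma's default prior variance 0 of 45037 probe sets (0.0%) passed, although 4459 had an unadjusted p under 0.05. Leaving out any 1 of the 4 arrays also left 0 calls. With the untreated arrays added to the fit, 1024 (2.27%) passed. Among the bright calls 98 higher (76 genes) and 143 lower (111 genes) passed in the 4-array fit and again in each 6-array fit that left out 1 treated array. Calls that met this, dim ones included, are termed stable here. All 1322 bright calls had groups that did not overlap, as did 6920 of the 13793 bright probe sets that did not pass. Where treated groups of a bright call are said below to be apart, this therefore adds nothing to the call.

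**Figure D1:**
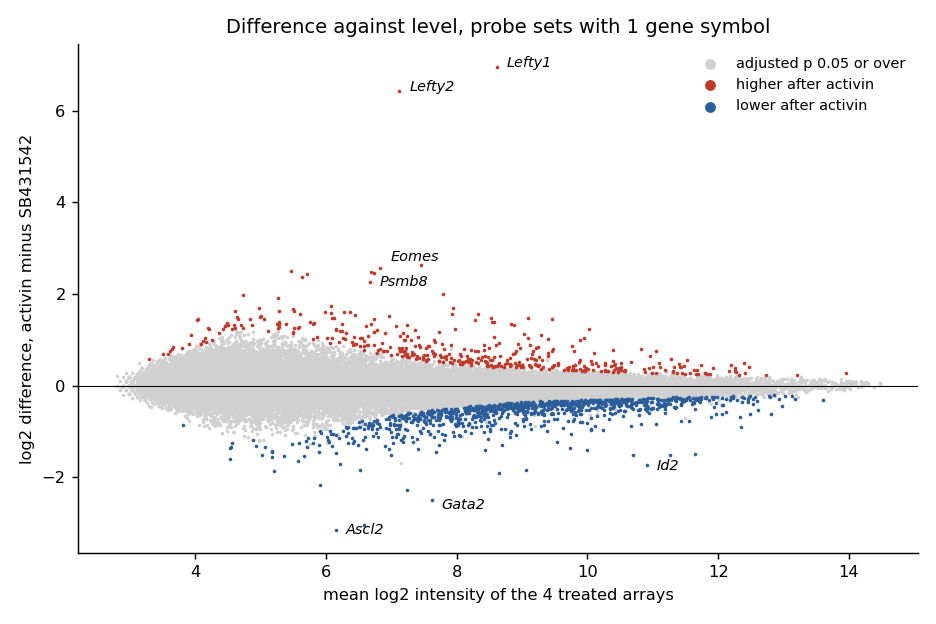
Difference between the activin and SB431542 group means (log2, vertical axis) against the mean log2 intensity of the 4 treated arrays (horizontal axis), 1 point per probe set with 1 gene symbol; red and blue points passed the test. Lefty1 and Lefty2 stand alone near 7, the next differences are near 2.5, and lower calls reach -3.15 for Ascl2.

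The Nodal antagonists Lefty1 and Lefty2 had the 2 greatest differences among the named genes. Lefty1, a secreted protein that binds Nodal and its coreceptor, read 12.00 and 12.19 after activin and 5.58 and 4.70 after SB431542. Lefty2, its neighbour and close relative, read 10.40 and 10.29 after activin and 3.81 and 4.00 after SB431542. Both genes were among the bright transcripts of activin-treated cells, and after SB431542 Lefty2 lay within the range of the background probes and Lefty1 at its edge. The difference was 6.95 ± 0.35 (SE, 124-fold; limma, adjusted p = 0.00624) for Lefty1 and 6.44 ± 0.183 (86.8-fold; adjusted p = 6.59e-26) for Lefty2. Since the SB431542 level is at background, these folds are limited by the array's floor. Untreated cells read 10.78 and 10.57 for Lefty1 and 8.96 and 8.95 for Lefty2, which is 79.6% and 78.4% of the way, in log2 units, from the SB431542 to the activin mean.

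Nodal itself differed less. Its arrays read 10.66 and 10.64 after activin, 9.32 and 9.50 after SB431542 and 10.53 and 10.49 in untreated cells. The groups did not overlap and the difference was 1.24 ± 0.0926 (2.36-fold; limma, adjusted p = 1.5e-12). Tdgf1 (Cripto), the coreceptor that Nodal needs, read 12.58 and 12.71 against 12.10 and 12.22, a difference of 0.48 (adjusted p = 3.71e-06). Gdf3, a related ligand, read 10.31 and 10.23 against 9.89 and 10.06, which did not pass (adjusted p = 0.0691).

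Eomes, Mixl1 and Fgf15, from the list of Nodal ligand, antagonists and direct targets, sat near 8 after activin and between 5 and 6 after SB431542. Eomes, a T-box factor of mesendoderm and trophoblast, read 8.02 and 8.21 after activin, 5.64 and 5.46 after SB431542 and 7.84 and 7.90 in untreated cells. Fgf15, a secreted FGF ligand, read 8.11 and 7.83 after activin, 5.55 and 5.46 after SB431542 and 7.43 and 7.27 untreated. Mixl1, a homeobox factor of the primitive streak, read 7.60 and 8.26 after activin, 5.21 and 5.67 after SB431542 and 8.13 and 8.01 untreated. For all 3 genes both activin arrays and both untreated arrays lay above both SB431542 arrays, and for Mixl1 the untreated values fell within the spread of the activin arrays. The differences were 2.56 ± 0.204 for Eomes (5.91-fold; limma, adjusted p = 8.7e-12), 2.47 ± 0.212 for Fgf15 (5.53-fold; adjusted p = 6.85e-11) and 2.49 ± 0.234 for Mixl1 (5.61-fold; adjusted p = 2.29e-09). Fgf8 behaved alike at a dimmer level, with 6.54 and 6.87 against 3.91 and 4.52 and a difference of 2.49 (adjusted p = 2.36e-06).

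The intracellular regulators Pmepa1, Spsb1 and Smad7 were higher after activin and had their untreated level nearer the middle than the Lefty genes. Pmepa1, which sequesters Smad2 and Smad3, read 8.93 and 8.64 after activin, 6.97 and 7.23 after SB431542 and 8.16 and 8.01 untreated. Spsb1, an adaptor of a ubiquitin ligase that acts on the type II TGF-beta receptor, read 8.74 and 8.83, 6.66 and 6.91, and 8.01 and 7.82 in the same order. Smad7, the inhibitory Smad, read 9.42 and 9.80, 8.51 and 8.63, and 9.18 and 9.28. In each of these genes the 3 groups were fully separated, with the untreated arrays between the treated ones. The untreated mean lay 58.6% of the way from the SB431542 to the activin mean for Pmepa1, 56.3% for Spsb1 and 63.4% for Smad7, and 43.0% at a second Smad7 probe set.

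By limma these regulators differed by 1.69 ± 0.147 for Pmepa1 (adjusted p = 1.03e-10), 2.01 ± 0.15 for Spsb1 (adjusted p = 1.47e-12) and 1.04 ± 0.116 for Smad7 (adjusted p = 8.49e-08). Of 3 probe sets for Pmepa1 and 4 for Spsb1, 2 passed in each gene, all higher. Skil, a repressor of Smad complexes also called SnoN, read 10.65 and 10.67 against 10.16 and 10.07, a difference of 0.55 ± 0.0859 (adjusted p = 4.33e-05). In the list of Smad2/3 negative feedback 3 of 12 genes passed, all higher, and the list's median difference was 0.19. Ski, Tgif1, Tgif2, Smurf1 and Smurf2 differed by 0.10 to 0.21 and did not pass.

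**Figure D2:**
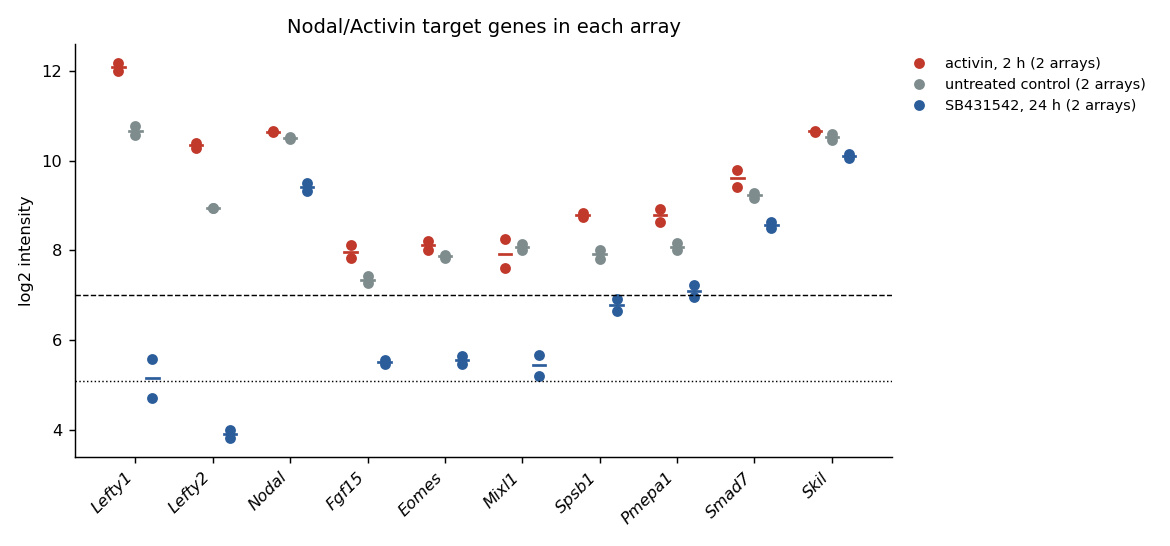
Log2 intensity (vertical axis) of 10 Nodal/Activin target and feedback genes on each of the 6 arrays; points are arrays, short bars group means, the dashed line log2 7 and the dotted line the highest unspiked Bacillus probe set, 5.09. Activin and untreated arrays lie above the SB431542 arrays in every gene shown, and untreated values for Spsb1, Pmepa1 and Smad7 lie between both treated groups.

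Over the whole list of Nodal targets, 10 of 14 measured genes passed, all higher and all stable, with a median difference of 1.85. All lists were written with earlier results of these data known, so their counts and medians are descriptions, not tests. Over all 18193 genes, each taken at its brightest probe set, 285 (1.57%) were higher and 609 (3.35%) lower, with a median of 0.00, so 894 (4.91%) passed in all. Among the 8679 genes above log2 7 in either group, 821 (9.46%) passed, 236 (2.72%) higher and 585 (6.74%) lower. Cer1, Gsc and Foxa2 did not pass: their activin arrays read 4.17 and 4.52, 4.09 and 4.00, and 4.58 and 5.29, at or near background. Of 21 mesendoderm genes 6 passed, all higher (Eomes, Mixl1, Evx1, Wnt3, Fgf8 and Nkx1-2), with a median of 0.29; 15 did not pass. Only 5 of the 21 had a mean above log2 7 in either group, so most of this list was measured at dim levels.

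In the machinery of the pathway, 19 receptors, Smads and cofactors, 1 gene was higher and 2 were lower after activin, and 16 did not pass. Over all genes 4.91% passed in either direction, and 9.46% of those above log2 7. Fst, which binds and neutralises activin, was higher, with 7.57 and 7.88 after activin, 5.93 and 6.49 after SB431542 and 7.67 and 8.09 untreated (difference 1.51 ± 0.206; limma, adjusted p = 3.62e-06). Tgfbr2, a type II receptor, was lower, with 5.81 and 6.69 against 7.45 and 7.13 (-1.04; adjusted p = 0.00862). Acvr1b, the type I receptor of activin and Nodal, read 8.80 and 8.79 against 9.19 and 9.14 (-0.37; adjusted p = 0.0493), and its call was lost with all 6 arrays in the fit (adjusted p = 0.124). Neither receptor call was among the stable ones.

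The signal transducers themselves did not pass. Smad2 read 9.49 and 9.56 after activin and 9.61 and 9.66 after SB431542, a difference of -0.11 (limma, adjusted p = 0.727). Smad3 read 8.21 and 8.08 against 8.54 and 8.52, a difference of -0.38 (adjusted p = 0.0996), and the DNA-binding partner Foxh1 read 9.35 and 9.54 against 9.43 and 9.15 (0.15; adjusted p = 0.639). The groups were apart for Smad2 and Smad3 and overlapped for Foxh1. Among 13 BMP receptors, ligands and Smads only Bmpr2, a type II BMP receptor, passed (0.52; adjusted p = 0.0258).

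The Id genes, inhibitors of basic helix-loop-helix factors and the best-known targets of BMP in these cells, were all lower after activin than after SB431542. Id1 read 10.79 and 11.02 after activin, 12.37 and 12.42 after SB431542 and 12.07 and 11.53 untreated. Id2 read 10.14 and 9.95, 11.77 and 11.79, and 10.17 and 10.20 in the same order. Id3 read 9.99 and 9.90, 11.50 and 11.43, and 10.98 and 10.99. For these 3 genes no activin array reached an SB431542 array. The untreated arrays separated the genes: both sat close to the activin arrays for Id2 and nearer the SB431542 arrays for Id3, while for Id1 they fell 1 on either side of the middle.

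By limma the differences were -1.74 ± 0.082 for Id2 (3.35-fold; adjusted p = 1.24e-18), -1.52 ± 0.0825 for Id3 (2.87-fold; adjusted p = 9.9e-17) and -1.50 ± 0.0759 for Id1 (2.82-fold; adjusted p = 3.21e-17). The untreated mean lay 91.9% of the way from the SB431542 to the activin mean for Id2, 82.8% for Id4, 40.1% for Id1 and 31.4% for Id3. Id4 read 8.24 and 8.26 after activin and 9.31 and 9.45 after SB431542 (-1.13 ± 0.113; adjusted p = 3.24e-09). Calls for Id2, Id3 and Id4 were stable. That for Id1 was not, with an adjusted p of 0.00538 by limma when all 6 arrays were fitted. The untreated arrays, which enter that fit, had an SD of 0.384 for Id1, against 0.162 for activin and 0.033 for SB431542.

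The promoters of Id2, Id3 and Id4 are shown because these genes were all lower after activin and each promoter holds a letter match to a Smad element. They run from 250 bases before to 50 after the annotated start, in RefSeq's GRCm38.p6 annotation, 5′ to 3′ on the gene's strand, at chr12:25096043-25096342 (minus strand) for Id2, chr4:136143572-136143871 (plus strand) for Id3 and chr13:48260866-48261165 (plus strand) for Id4. Capitals mark matches, on either strand, to the Smad box CAGAC, the GC-rich Smad element GGCGCC or the Foxh1 core ATNCACA.
Id2: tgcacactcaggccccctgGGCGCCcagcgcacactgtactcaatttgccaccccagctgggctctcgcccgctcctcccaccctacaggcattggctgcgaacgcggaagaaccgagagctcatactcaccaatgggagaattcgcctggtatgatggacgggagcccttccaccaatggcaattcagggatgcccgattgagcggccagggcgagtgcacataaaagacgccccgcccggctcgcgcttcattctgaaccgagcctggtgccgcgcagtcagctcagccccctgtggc
Id3: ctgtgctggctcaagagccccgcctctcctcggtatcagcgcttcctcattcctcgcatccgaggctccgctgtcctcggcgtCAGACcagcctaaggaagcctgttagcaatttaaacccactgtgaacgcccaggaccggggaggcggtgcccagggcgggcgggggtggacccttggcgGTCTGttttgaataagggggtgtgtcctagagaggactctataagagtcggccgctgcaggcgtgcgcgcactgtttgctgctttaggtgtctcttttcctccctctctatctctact
Id4: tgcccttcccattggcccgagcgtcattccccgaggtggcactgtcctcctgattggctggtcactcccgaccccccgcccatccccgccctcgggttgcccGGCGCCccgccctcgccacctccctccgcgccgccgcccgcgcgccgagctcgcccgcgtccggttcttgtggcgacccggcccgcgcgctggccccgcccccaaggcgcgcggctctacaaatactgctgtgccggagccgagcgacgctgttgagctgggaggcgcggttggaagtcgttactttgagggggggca

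Id2 and Id4 each hold 1 GGCGCC and Id3 holds 2 matches to CAGAC, 1 on each strand, all upstream of the start. These promoters were chosen for holding a match, so its presence is not a result. The promoters of Nodal and Ascl2 hold none of the 3 motifs. These motifs are common. Among 18009 promoters of 14368 measured genes, 48.8% hold CAGAC, 17.6% GGCGCC and 9.6% ATNCACA. Among promoters of bright genes higher after activin the shares were 55.2%, 21.2% and 9.6%. For bright genes lower after activin they were 43.2%, 24.3% and 7.69%. The 14368 measured genes were bright or dim, and shares for bright genes that did not pass are not given here. Whether the differences in share go with the level of the genes was therefore not tested. A match of letters is a description, not a site of binding. Lefty1, Lefty2, Fgf15, Mixl1, Pmepa1 and Id1 were not matched to a promoter.

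Of 20 BMP target genes 9 were lower and 1 was higher after activin, with a median of -0.74, and 8 of the 10 calls were stable. Smad7, which both pathways induce, was the higher one. Besides the Id genes the lower ones were the homeobox gene Msx2 (-0.89) and the trophoblast regulators Gata2, Gata3, Hand1 and Tfap2c, which the trophoblast list holds as well. Smad6, the inhibitory Smad of the BMP pathway, read 7.86 and 7.56 against 8.04 and 8.34 and did not pass (limma, adjusted p = 0.066). Msx1 read 7.64 and 7.78 against 7.68 and 7.27, with overlapping groups (adjusted p = 0.634).

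Genes of the trophoblast, the outer lineage of the embryo that forms the placenta, were often lower after activin. Of 21, 13 were lower and 1 was higher, with a median of -0.83. Among the 28 lists, written with earlier results of these data known, this one was most often lower. Ascl2, an imprinted basic helix-loop-helix factor of the placenta, read 6.02 and 6.19 after activin, 8.39 and 8.39 after SB431542 and 6.38 and 6.34 untreated at its brightest probe set. Gata2, a zinc finger factor, read 6.07 and 6.67 after activin, 8.89 and 8.86 after SB431542 and 6.27 and 5.93 untreated at the probe set with the larger difference. Phlda2, an imprinted gene that limits placental growth, read 10.42 and 10.57, 11.95 and 12.09, and 10.72 and 10.41 in the same order. In these genes the SB431542 arrays stood alone and high, with the untreated arrays beside the activin arrays.

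Ascl2 differed by -2.28 ± 0.175 (4.86-fold; limma, adjusted p = 3.11e-12) and by -3.15 at another of its 3 probe sets, all of which passed. Gata2 differed by -2.50 ± 0.171 (adjusted p = 1.47e-12), and by -1.01 at its brighter probe set, so its fold depends on the probe set. Phlda2 differed by -1.52 ± 0.0787 (2.88-fold; adjusted p = 2.49e-17). Tfap2a (-1.44), the homeobox gene Esx1 (-1.41), the retrotransposon-derived Peg10 (-1.39), Plac1 (-1.06), Mbnl3 (-0.99), Hand1 (-0.91), Tfap2c (-0.83), Wnt7b (-0.83) and Cited1 (-0.76) were lower as well. Of the 14 calls in the list 11 were stable.

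The trophoblast list was not lower as a whole. Eomes was the 1 member that was higher after activin, as described among the Nodal targets. Cdx2, the homeobox factor that specifies trophoblast, read 7.24 and 8.04 after activin and 7.69 and 7.41 after SB431542, with overlapping groups (limma, adjusted p = 0.931). Elf5, a factor of trophoblast stem cells, read 4.17 and 4.17 against 4.00 and 3.70, within the range of the background probes. The summed log2 level of 5 trophoblast markers (Cdx2, Elf5, Gata3, Hand1 and Krt7) was 31.48 and 31.63 after activin, 34.92 and 34.01 after SB431542 and 32.49 and 31.65 untreated. The part of a change in cell types in this result was not tested.

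Keratins and cell junction genes were lower after activin too, by smaller amounts. Krt8, a keratin of simple epithelia, read 12.19 and 12.17 after activin, 12.78 and 12.83 after SB431542 and 12.54 and 12.22 untreated (-0.63 ± 0.063; limma, adjusted p = 3.28e-09). Krt18, its partner, read 12.08 and 11.90, 12.68 and 12.68, and 12.34 and 12.11 in the same order (-0.69 ± 0.0672; adjusted p = 1.64e-09). The treated groups did not overlap for either, and both were stable. Of 18 genes in the list 11 were lower and 0 higher, with a median of -0.45, and 3 of the 11 were stable, Cldn4 (-0.61) being the third. Krt7, Krt19, Cldn7, Ocln, Dsp, Dsc2, Dsg2 and Cdh1 were lower as well, with differences of -1.10 to -0.25. Epcam and Jup differed by 0.05 and 0.07 and did not pass.

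**Figure D3:**
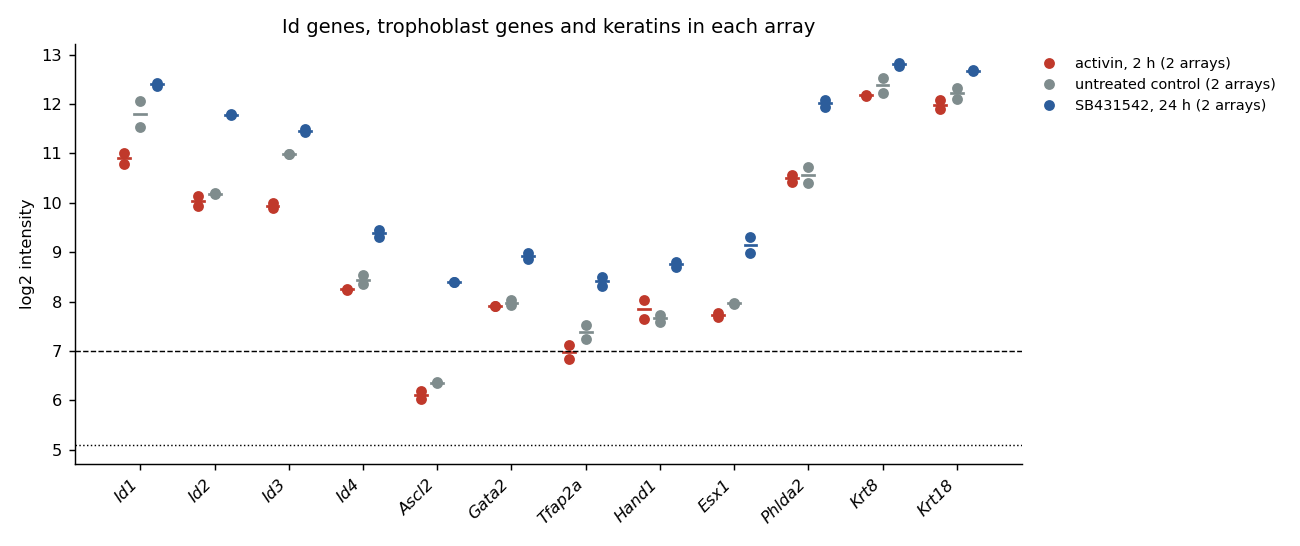
Log2 intensity (vertical axis) of the Id genes, trophoblast genes and keratins on each of the 6 arrays; points are arrays, short bars group means, the dashed line log2 7 and the dotted line 5.09, the highest unspiked Bacillus probe set. SB431542 arrays are above the activin arrays in all 12 genes, and the untreated arrays lie near the activin arrays for Id2 and Phlda2 and nearer the SB431542 arrays for Id3.

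Pluripotency factors differed by small amounts on a high level. Pou5f1 (Oct4) read 12.46 and 12.45 after activin, 11.99 and 12.13 after SB431542 and 12.57 and 12.41 untreated (0.39 ± 0.0668, 1.31-fold; limma, adjusted p = 0.000148). Nanog read 12.44 and 12.39, 12.16 and 12.09, and 12.42 and 12.32 in the same order (0.29 ± 0.0655, 1.22-fold; adjusted p = 0.00517). Both had groups that did not overlap, and neither call was stable. Sox2 read 12.34 and 12.45 against 12.30 and 12.35, with overlapping groups (0.07; adjusted p = 0.76).

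Of 9 core pluripotency factors 4 were higher and 1 was lower. L1td1, an RNA-binding protein, was the 1 stable call (0.41), and Utf1 was higher by 0.34. Lin28a was lower in the 4-array fit (-0.40; limma, adjusted p = 9.68e-05) and not with all 6 arrays (adjusted p = 0.729), its untreated arrays reading 11.75 and 12.41. Of 23 naive pluripotency genes 3 were higher (Dppa2 0.44, Tcl1 0.44 and Dppa5a 0.26) and 3 lower (Klf4 -0.50, Socs3 -0.33 and Fbxo15 -0.29), with a median of 0.14. Klf4, a target of LIF signalling, read 10.75 and 10.88 against 11.36 and 11.29 and was the 1 stable call. Esrrb and Zfp42 differed by -0.02 and -0.05 and did not pass.

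Genes of the primed epiblast split. Of 15, 5 were higher and 2 lower, with a median of 0.32. Fgf15, already given, led the higher ones. Fgf5, the standard marker of this state, read 5.00 and 5.32 against 4.00 and 3.70, at or near background in both groups, so the size of its difference is uncertain (limma, adjusted p = 0.0137). Lef1 (0.59), Utf1 (0.34) and the DNA methyltransferase Dnmt3a (0.33) were higher, and the POU factor Pou3f1 (-0.41) and Krt18 lower. Otx2, a homeobox factor of this state, read 7.74 and 7.81 against 7.67 and 7.91, with overlapping groups. Of the 7 calls, those for Fgf15 and Krt18 were stable.

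Wnt response genes were higher where they moved, 5 of 14, with a median of 0.23. Sp5, a zinc finger repressor induced by Wnt, read 7.72 and 8.08 after activin, 6.64 and 6.49 after SB431542 and 8.20 and 8.03 untreated (1.33 ± 0.18; limma, adjusted p = 2.66e-06). Notum, a secreted enzyme that inactivates Wnt ligands, read 8.61 and 8.57, 7.35 and 7.38, and 8.40 and 8.42 in the same order (1.23 ± 0.139; adjusted p = 5.69e-08). For both, the SB431542 arrays were the low ones, and both calls were stable. Lef1 (0.59), the Wnt antagonist Dkk1 (0.48) and Ccnd1 (0.31) passed and were not stable. Axin2, the usual reporter of the pathway, read 8.55 and 8.86 against 8.67 and 8.38, with overlapping groups (adjusted p = 0.632).

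Response genes of FGF and ERK, and immediate early genes, were more often lower after activin. In the FGF/ERK list 5 of 16 were lower (Fgfr2 -0.79, Dusp5 -0.61, Egr1 -0.59, Spry4 -0.49 and Spred1 -0.32) and 1 higher. The higher one, Il17rd (Sef), a membrane inhibitor of FGF signalling, read 9.74 and 9.94 after activin, 8.77 and 8.70 after SB431542 and 9.50 and 9.36 untreated (1.11 ± 0.105; limma, adjusted p = 7.69e-10) and was the 1 stable call. Spred1 passed at 1 of its 8 probe sets. Etv5 did not pass at its brightest probe set (0.07), while 2 of its 3 probe sets passed as higher (0.437 and 0.444). Among 20 immediate early genes 7 were lower and 2 higher. Myc read 9.64 and 9.48 against 8.65 and 8.69, with 9.32 and 9.19 untreated (0.89 ± 0.107; adjusted p = 2.55e-07), and Ccn1, a matricellular target of SRF and YAP, read 8.55 and 8.44 against 9.28 and 9.43 (-0.86; adjusted p = 1.08e-06). These 2 were the stable calls of the list.

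Immunoproteasome subunits, which replace standard catalytic subunits of the proteasome, were higher after activin. Psmb8 read 7.82 and 7.79 after activin, 5.46 and 5.62 after SB431542 and 8.17 and 8.10 untreated (2.27 ± 0.215, 4.82-fold; limma, adjusted p = 7.69e-10) at 1 of its 2 probe sets, the other differing by 0.24. Psmb10 read 9.06 and 9.13, 7.47 and 7.62, and 9.25 and 9.13 in the same order (1.55 ± 0.128, 2.93-fold; adjusted p = 2.27e-11). Untreated arrays were at or above the activin arrays in both, so the SB431542 arrays stood apart. The third catalytic subunit, Psmb9, differed by 0.45 at a dim level and did not pass.

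Of 14 genes of the immunoproteasome and antigen processing 4 were higher (Psmb8, Psmb10, Psme1 and Erap1) and 1, the class I chain H2-D1 (-0.55), was lower. Calls for Psmb8 and Psmb10 were the 2 stable ones. A dimmer probe set each of H2-K1 (-0.575) and B2m (-0.424) was also lower, while the brightest of each did not pass. Of 16 interferon-responsive genes 4 were higher and 0 lower. Irf1, a transcription factor of this response, read 9.59 and 9.60 against 8.43 and 8.52, with 9.35 and 9.28 untreated (1.12 ± 0.108; limma, adjusted p = 1.1e-09). Ifi35 (1.00), Gbp2 (0.40) and Oasl2 (1.49) were the others, and Irf1 and Ifi35 were stable. Irgm1, an interferon-inducible GTPase, read 8.67 and 8.75 against 7.04 and 7.26 (1.56; adjusted p = 3.27e-10). Most of the canonical members did not pass: Stat2, Irf7, Irf9, Ifit1 and Bst2 differed by -0.20 to 0.35.

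In the list of Cdk inhibitors and p53 targets 2 genes were higher and 2 lower. Cdkn1a (p21) read 9.50 and 9.59 after activin, 8.71 and 8.88 after SB431542 and 9.78 and 9.60 untreated (0.76; limma, adjusted p = 5.91e-06). Cdkn2b (p15), a known target of TGF-beta, read 8.10 and 7.77 against 7.29 and 6.93 (0.82; adjusted p = 0.00187). The stress-response genes Gadd45b (-0.78) and Gadd45g (-1.12) were lower. Calls for Cdkn1a, Gadd45b and Gadd45g were stable, and 12 of the 16 genes in this list did not pass. Of 21 cell cycle and replication genes 3 passed (Ccnd1, Ccnd3 and Rrm2), none by over 0.36.

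Calls in lists of other lineages stand beside 4.91% of all genes that passed in either direction, and 9.46% of those above log2 7. Of 17 neuroectoderm genes only Zic5 passed (0.44). Of 18 extraembryonic endoderm genes 3 were lower, all of them matrix genes (Col4a1 -0.41, Col4a2 -0.67 and Sparc -0.52), while Gata4, Gata6, Sox17 and Afp read between 4.39 and 5.64 on the treated arrays and did not pass. Of 17 germ cell genes Prdm1 (0.87) and Dnd1 (0.65) were higher, and Tfap2c, Rhox6 (-0.99) and Rhox9 (-0.998) lower. Of 20 fibroblast and mesenchyme genes Col1a1 (1.34), Cdh2 (0.70) and Fn1 (0.48) were higher, with a median of 0.39. The summed log2 level of 7 fibroblast markers, Col1a1 among them, was 38.52 and 39.82 after activin, 35.85 and 35.54 after SB431542 and 37.32 and 36.11 untreated. None of the 7 had a mean above log2 7, and Lum was at background (3.70 to 4.00) in all 4 treated arrays. The part of fibroblasts in the result was not tested.

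The remaining lists had medians between -0.10 and 0.10. Of 15 smooth muscle and cytoskeletal SRF targets 4 were lower (Ccn1, Anxa3, Cnn2 and Tpm1) and of 16 amino acid and ER stress genes 2 (Ddit3 -0.52 and Phgdh -0.37). Of 18 glycolysis and hypoxia genes 3 were lower (Ndrg1 -0.76, Slc2a1 -0.54 and Slc2a3 -0.32) and 1 higher (Pfkl 0.33). Of 9 DNA methyltransferases and Tet enzymes Dnmt3a (0.33) and Tet1 (0.36) were higher and Uhrf1 (-0.33) lower. None of 15 cholesterol synthesis genes passed by limma. Among 11 housekeeping genes Tfrc (0.32) passed and Actb differed by 0.02.

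**Figure D4:**
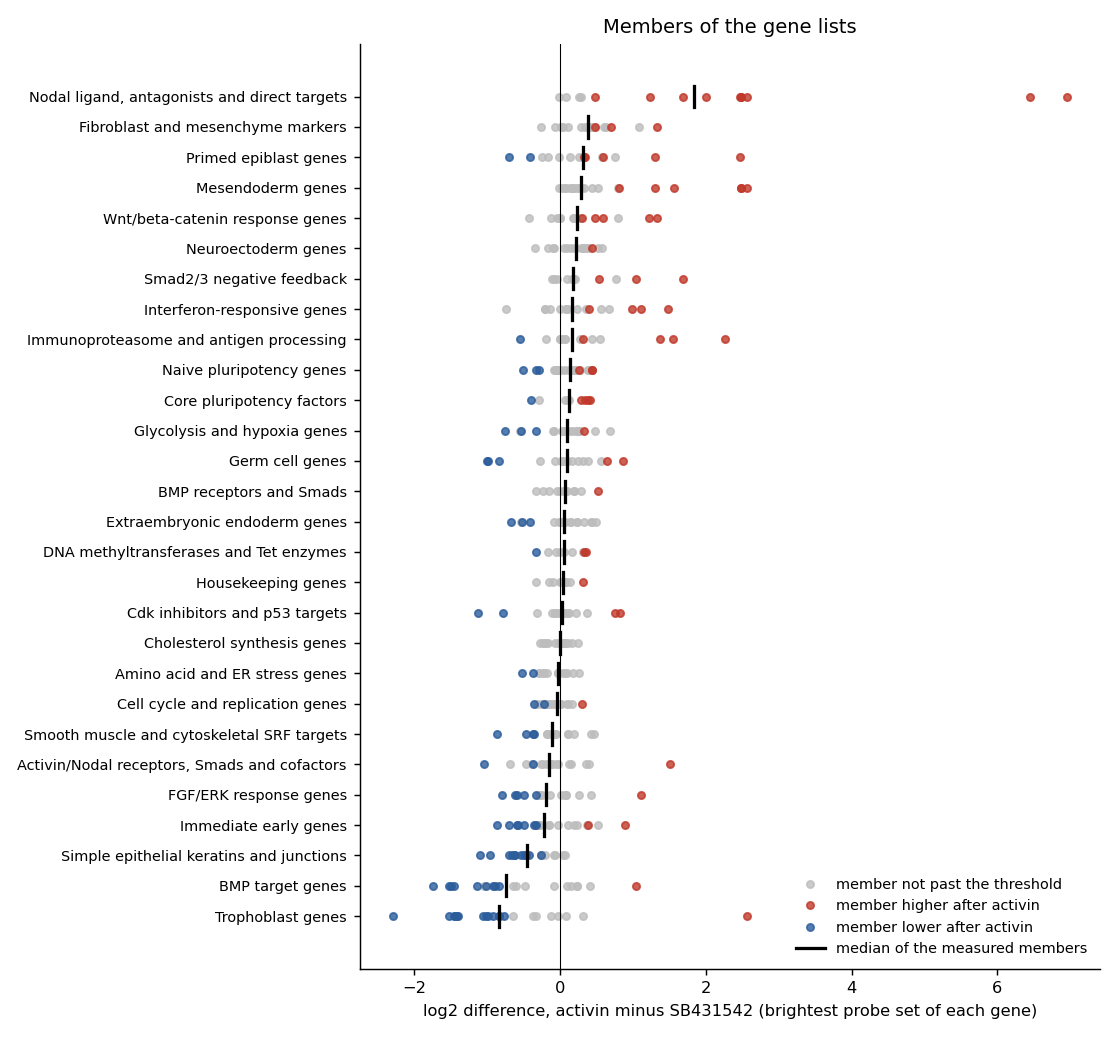
Log2 difference, activin minus SB431542 (horizontal axis), of each measured member of the 28 gene lists at its brightest probe set, lists ordered by median (black bar); red and blue points passed the test. Nodal targets have the highest median, 1.85, and trophoblast genes the lowest, -0.83, followed by BMP target genes at -0.74. The lists were written with earlier results of these data known, so their order is a description.

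Outside the lists, the greatest differences belonged to genes of varied function. Chst15, a sulfotransferase of chondroitin sulfate, was higher after activin with 8.97 and 8.57 against 6.21 and 6.09, and 8.51 and 8.12 untreated (2.62 ± 0.169, 6.15-fold; limma, adjusted p = 2.06e-14). The ephrin receptor Epha2 (1.47), the neurofilament chain Nefl (1.44), the IGF carrier Igfbp3 (1.39), the ectonucleotidase Nt5e (1.54), the adaptor Dok2 (1.46), Cnpy1 (1.61) and the zinc finger gene Zfp819 (1.48) were also higher. All 8 genes were picked among probe sets whose treated groups did not overlap, so that separation was fixed by the choice. Their 8 calls were stable at the probe set given. Nt5e passed at 1 of its 3 probe sets, and another differed by -0.47.

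In the other direction Sh3bp5, a regulator of Rab11, read 4.95 and 4.70 after activin against 7.03 and 6.98, with 5.21 and 5.55 untreated (-2.18 ± 0.285, 4.53-fold; limma, adjusted p = 1.29e-06). AU015836 (-1.90), 3830417A13Rik (-1.83), the T-box gene Tbx20 (-1.72), the LIM protein Pdlim2 (-1.51), the water and glycerol channel Aqp3 (-1.32) and Greb1l (-1.29) were lower and stable. Vgll3 (-1.85), a cofactor of TEAD factors, troponin Tnnc1 (-1.38) and Castor2 (-1.29) were lower and not stable at the probe set given. That of Vgll3 is its dimmest, and its brighter probe sets passed with -1.297 and -1.232. At its brightest probe set Aqp3 differed by -0.982. For some of these only 1 probe set passed: 1 of 3 for Sh3bp5, where another differed by -0.02, 1 of 3 for Tbx20, 1 of 4 for Castor2 and 1 of 2 for Greb1l.

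The limit of log2 7 is arbitrary. Just outside it lay 2610005L07Rik, with a higher group mean of 6.974, and Egfr, with 6.982. Just inside it lay Sh3bp5, at 7.005, and Exoc3l, at 7.006. Below the limit 105 further probe sets were higher and 58 lower. For Hnrnpdl and Sf1 different bright probe sets passed in opposite directions.

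Untreated cells sat near the activin level for most genes that passed. Of the 366 bright probe sets higher after activin, the untreated mean was nearer the activin mean in 336 (91.8%), and of the 956 lower in 911 (95.3%). Among the 13793 bright probe sets that did not pass this share was 66.2%, and among all probe sets 58.7%. The median place of the untreated mean was 91.9% of the way from the SB431542 to the activin mean for higher genes and 97.9% for lower genes. It lay between both treated means in 226 of the higher and 504 of the lower probe sets. It lay beyond the activin mean in 139 of the higher and 449 of the lower, and beyond the SB431542 mean in 1 and 3. The 2 untreated arrays do not give the same place: without the second, the share nearer activin among lower genes was 82.5%, and without the first it was 96.9%.

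A minority of genes had the untreated level well between both treatments, 98 higher and 209 lower probe sets at 25% to 75% of the way. Among named genes at their brightest probe sets, Rras2, a Ras-family GTPase, came closest to the middle, reading 10.51 and 10.54 after activin, 10.88 and 10.71 untreated and 11.17 and 10.95 after SB431542 (50.1% of the way; limma, adjusted p = 4.1e-05 between the treatments). Litaf, Flrt3, Maml1, Eps8l2, Nfkbid, Mettl9, Alg8, Atraid and Foxj2 followed, at 49.3% to 51.6%, and like Rras2 were not stable. Pmepa1, Spsb1, Smad7, Id1 and Id3, given above, belong to this range and have larger differences. Krt19 had its untreated level at that after SB431542 (2.79% of the way), with 8.66 and 8.53 after activin, 8.99 and 9.17 after SB431542 and 9.24 and 8.89 untreated.

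Other genes had the untreated level outside both treatments, and the 5 named genes farthest outside on each side are given here. Above both lay Psme1, an activator of the immunoproteasome, with 10.81 and 10.58 untreated against 10.36 and 10.39 after activin and 10.06 and 10.05 after SB431542. Zfp428, Gbp2, the hyaluronan synthase Has2 and Psmb8 complete these 5. Below both lay Map3k12, a neuronal stress kinase, with 6.29 and 6.88 untreated against 7.85 and 8.14 after activin and 8.87 and 8.43 after SB431542, as did Tra2a, a splicing factor, with 10.23 and 10.25 against 10.76 and 11.03 and 11.60 and 11.38. Kdf1, Csgalnact2 and Kalrn complete the 5 on this side. Map3k12 passed at 1 of 4 probe sets, Tra2a at 1 of 6 and Kalrn at 1 of 8. In Kdf1 the untreated arrays read 7.04 and 5.70, so that 1 array sets its place.

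**Figure D5:**
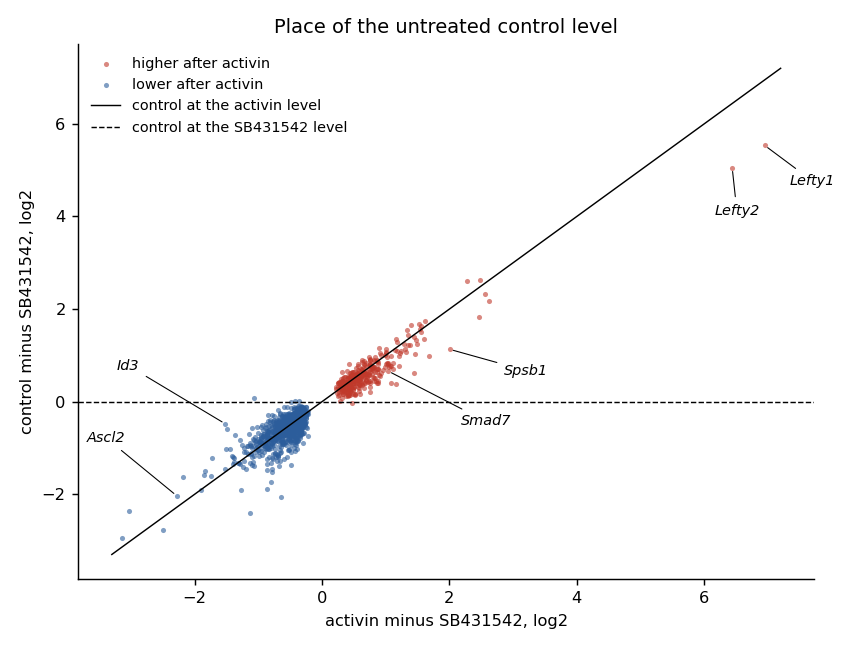
Untreated minus SB431542 mean (vertical axis, log2) against activin minus SB431542 mean (horizontal axis, log2) for bright probe sets with 1 gene symbol that passed the test. Most points lie near the solid line, where the untreated level equals the activin level; Lefty1, Lefty2, Spsb1 and Smad7 fall below it and Id3 lies closer to the dashed line, where the untreated level equals that after SB431542.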

How the data were processed

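The authors deposited linear intensities, 1 per probe set and array. RMA is named in the submitters' processing notes; its version is not given in the sources used here. Each intensity was converted to log2 with no further normalization. Of 45101 probe sets, 64 Affymetrix controls were not tested; 45037 remained, of which 34945 had 1 gene symbol in the platform annotation, 932 several and 9160 none. Symbols came from that annotation; 34741 Entrez identifiers were found in RefSeq's gene table and 0 symbols changed. Groups come from the sample titles.

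The 2 activin and 2 SB431542 arrays entered limma 3.58.1 under R 4.3.3, with a mean for each group and eBayes using an intensity trend and robust estimation, because the residual SD ran from 0.0649 in the brightest of 10 equal bins to 0.315 in the most variable. The fit had 2 residual degrees of freedom, to which the prior added a median of 36. Benjamini-Hochberg adjustment ran over all 45037, with a threshold of 0.05.

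Lists used the brightest probe set of each gene over the 4 arrays: 28 lists held 435 genes, 408 of them measured. Genes were named by rule: 5 markers, the 20 greatest bright and non-overlapping differences each way, bright list members that passed, a set of pathway genes, and genes whose untreated level lay nearest the middle (10) or farthest outside (5 each side). Not every gene that the rule selects is reported here. Other genes were named as members of a list that did not pass, after their values were seen. The members, lists and rules were chosen with earlier results of these data known. Alternatives were other priors, all 6 arrays, quantile normalization, shifted columns, a filter on dim probe sets, a pseudocount of 16, a replicate block and arrays left out. The number of arrays limits the precision.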

Additional observations from a re-analysis of the deposited data

How the results depend on the processing

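No direction of a named gene that passed was reversed under any alternative run. Calls of all probe sets (main 1485; 471 higher and 1014 lower) fell to 18 (11 and 7) with the intensity trend alone, 1 (1 and 0) with robust estimation alone and 0 with the default prior variance. They numbered 1024 with all 6 arrays (663 lower), 1223 with quantile normalization repeated (674 lower) and 491 (198 and 293) with columns shifted to 1 median. Bright calls (main 1322; 366 and 956) were 18, 1 and 0 in the first 3 settings, 294 (90 and 204) with shifted columns, and 627 and 586 among the lower with all 6 arrays and with quantile normalization. Removing the dimmest 40% of probe sets or adding 16 left 1597 and 1513 calls. Leaving out 1 of the 4 arrays, which leaves 1 residual degree of freedom, gave 0 calls in every case. In the 6-array fit, leaving out each treated array, chosen after seeing the data, gave 564 calls without activin array 1 (278 higher, 286 lower; 453 bright, 175 and 278), 921 without activin array 2 (224 and 697; 820 bright, 184 and 636), 402 without SB431542 array 1 (188 and 214; 356 bright, 152 and 204) and 517 without SB431542 array 2 (174 and 343; 475 bright, 147 and 328). That fit with the default prior, also chosen after seeing the data, called 9 (8 and 1).

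The title numbers share only a number: with a replicate block 30 probe sets passed (19 higher, 11 lower), all of them bright, and same-numbered deviations correlated at -0.126. Pairing the numbers crosswise, added after seeing the data, gave 3 calls (3 higher, 0 lower).

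Averaging all probe sets of a gene moved list medians from 1.846 to 1.346 (Nodal targets), -0.735 to -0.542 (BMP targets), 0.324 to 0.142 (primed epiblast), -0.189 to -0.087 (FGF/ERK), -0.209 to -0.146 (immediate early), -0.101 to -0.052 (SRF targets) and 0.044 to 0.057 (housekeeping). The share of lower bright probe sets nearer the activin level was 82.5% to 96.9% with 1 untreated array. Signals near 3.00 to 5.09, the background range, understate differences.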

Other observations

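Lower calls were not spread evenly over chromosomes. Of 617 genes on the X chromosome, each at its brightest probe set, 40 (6.48%) were lower after activin than after SB431542 and 5 (0.81%) higher. On the 19 autosomes 2.55% to 4.14% of genes were lower and 0.998% to 2.5% higher. The named X-linked genes were AU015836 (-1.90), 3830417A13Rik (-1.83), the placental genes Esx1 (-1.41) and Plac1 (-1.06), the splicing regulator Mbnl3 (-0.99), the reproductive homeobox genes Rhox6 (-0.99) and Rhox9 (-0.998), and Cited1 (-0.76). Esx1 read 7.69 and 7.77 after activin, 9.30 and 8.97 after SB431542 and 7.98 and 7.95 untreated, so its SB431542 arrays stood apart. Several of these genes belong to the trophoblast and germ cell lists, and the share over chromosomes was not tested.

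Arrays of the same group differed by a median of 0.118 (activin), 0.09 (SB431542) and 0.136 (untreated) log2 units over bright probe sets.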
